A study of Mus musculus with 3 samples.

Results

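The interleukin 12 family of cytokine subunits was described in primary mouse macrophages grown from bone marrow, through the 5 genes Il12a, Il12b, Il23a, Il27 and Ebi3. The members were taken by gene symbol, under a rule that uses no measured value, and all 5 were found among 55536 mouse genes. Earlier results of these data were known when the members were chosen. The data comprised polyadenylated RNA of 3 libraries, replicates 1 to 3 of a single group of C57BL/6J macrophages exposed for 180 min to 100 ng/mL of a stimulus, with 1 µg of RNA per library. What the macrophages received is labelled in different ways. Lipid A, the part of bacterial lipopolysaccharide sensed through Toll-like receptor 4, stands in the description, and lipoprotein A in the treatment field. Sex and age of the animals were not collected. The libraries are labelled as biological replicates with separate sample entries but carry 1 donor identifier. The spread between these samples may therefore be in part technical. The p-values given hold for these samples, and those of the chi-square test set that spread against counting error only. No untreated group was analysed here. No value is therefore a response, and the comparisons are between subunit genes within a library and between libraries.

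Cytokines of this family are heterodimers of a four-helix subunit and a subunit that resembles a soluble cytokine receptor. Il12b encodes the receptor-like subunit p40, which joins the product of Il12a (p35) to form interleukin 12 and the product of Il23a (p19) to form interleukin 23. Ebi3 encodes the other receptor-like subunit, which joins the product of Il27 (p28) to form interleukin 27 and can join that of Il12a to form interleukin 35. Macrophages and dendritic cells secrete interleukin 12 and interleukin 23 after microbial sensing, and these act on T cells and natural killer cells to promote interferon gamma and interleukin 17 responses. Interleukin 27 both promotes and restrains T cell responses.

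The 250 bases before the annotated starts are shown for 3 members, Il12a, Il12b and Ebi3. The promoter sequences used held no entry for Il23a or Il27. Il12a has a pair of annotated coding transcripts with separate starts, to which reads were assigned unequally. Il12b and Ebi3, the receptor-like subunit genes, were respectively highest and lowest in replicate 2. Sequences are from RefSeq (GRCm38.p6, plus strand, the assembly also called mm10) and end at the base before the RefSeq start, which for Ebi3 lies a few bases upstream of the GENCODE start given below. Capitals mark matches, on either strand, to the motifs searched: the NF-kB motif kappaB, its relative GGGAATT, the interferon-stimulated response element, the AP-1 motif TGANTCA, the C/EBP-type motif TTGCAA and the TATA motif TATANA. The motifs were chosen with the sequences known.
Il12b, chr11:44399813-44400062: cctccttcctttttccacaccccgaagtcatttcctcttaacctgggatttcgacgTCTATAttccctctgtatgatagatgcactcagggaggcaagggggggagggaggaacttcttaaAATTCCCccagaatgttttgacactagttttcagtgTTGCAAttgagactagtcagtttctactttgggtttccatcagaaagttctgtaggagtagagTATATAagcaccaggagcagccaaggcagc
Il12a-201 start, chr3:68690394-68690643: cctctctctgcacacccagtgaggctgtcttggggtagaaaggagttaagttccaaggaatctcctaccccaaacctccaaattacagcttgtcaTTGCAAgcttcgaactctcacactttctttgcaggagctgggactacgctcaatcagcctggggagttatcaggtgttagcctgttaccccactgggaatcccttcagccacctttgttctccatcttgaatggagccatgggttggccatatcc
Il12a-202 start, chr3:68691174-68691423: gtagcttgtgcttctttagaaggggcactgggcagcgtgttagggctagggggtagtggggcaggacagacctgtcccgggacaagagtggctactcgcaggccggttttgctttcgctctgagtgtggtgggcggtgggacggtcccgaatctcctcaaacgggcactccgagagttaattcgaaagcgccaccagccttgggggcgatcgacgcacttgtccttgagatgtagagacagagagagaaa
Ebi3, chr17:55952373-55952622: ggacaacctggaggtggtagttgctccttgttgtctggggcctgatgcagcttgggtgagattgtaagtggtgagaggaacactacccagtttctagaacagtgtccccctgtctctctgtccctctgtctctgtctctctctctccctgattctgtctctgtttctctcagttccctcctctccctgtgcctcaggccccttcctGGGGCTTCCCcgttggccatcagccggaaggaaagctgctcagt

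In the Il12b window, GGGAATT lay on the minus strand 129 bases before the start, TTGCAA at 93 bases and a TATA motif at 30 bases. A further TATA motif lay at 194 bases. The Ebi3 window held a kappaB match, GGGGCTTCCC, 44 bases before the start and none of the other motifs. The window before the Il12a-201 start held a single TTGCAA, 155 bases upstream, and the window before Il12a-202 held no match. Over 32851 RefSeq promoter windows of the same length, kappaB was present in 3.9%, GGGAATT in 3.08%, the interferon-stimulated response element in 2.98%, TGANTCA in 6.75%, TTGCAA in 5.34% and TATANA in 22.6%. The Il12a-202 window held 15 CG dinucleotides, against 3 in Il12b, 2 in Ebi3 and 2 before Il12a-201; the median window held 6. Its share of G and C was 58.4%, close to the 56.0% of Ebi3 and above the 50.8% before Il12a-201 and the 46.0% of Il12b. These matches are letters in a window, and no factor was measured on them.

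The libraries held 24450338, 34641026 and 60595742 expected counts (estimated fragments assigned to mouse genes) in replicates 1, 2 and 3. Levels are given in TPM, a share of a library's transcripts scaled for transcript length, which can be compared between genes. Detection required at least 1 TPM in each of the 3 libraries, which 10026 genes reached (18.1% of all), and the median detected gene stood at 14.6, 15.2 and 14.1 TPM. Among the members, 4 of 5 were detected, Il23a being the exception; Il12a was lost as well at a limit of 2 TPM, in FPKM and in the second quantification. Macrophage identity was checked on 8 markers, all detected in every library, from Itgam at 61.1 ± 4.46 TPM (SD, n = 3) to Lyz2 at 18063 ± 4872 TPM.

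Il27, Il12b and Ebi3 were abundant, whereas Il12a and Il23a were low. Il12b (ENSMUSG00000004296.14; chromosome 11, 44400063 to 44414033, mm10) had 197, 391 and 318 TPM in replicates 1, 2 and 3, a mean of 302 ± 98.1 TPM (SD, n = 3). Replicate 1 was its lowest library, with 5067 expected counts, against 14317 and 19826 in replicates 2 and 3. Ebi3 (ENSMUSG00000003206.7; chromosome 17, 55952640 to 55957022) had 277, 144 and 297 TPM, a mean of 239 ± 83.0 TPM. Here replicate 2 stood below the other libraries, which lay close together. The receptor-like subunits thus exchanged order: Ebi3 was above Il12b in replicate 1, nearly equal to it in replicate 3 and below it in replicate 2. Il12b made up 41.5%, 73.1% and 51.7% of the summed TPM of both genes in replicates 1, 2 and 3.

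Among the helical subunits, Il27 (ENSMUSG00000044701.5; chromosome 7, 126589010 to 126594941) was highest in every library, at 477, 531 and 314 TPM, with a mean of 440 ± 113 TPM (SD, n = 3). Its lowest library was replicate 3. Il12a (ENSMUSG00000027776.12; chromosome 3, 68690644 to 68698547) had 2.25, 6.07 and 1.10 TPM, which rested on 36, 130 and 43 expected counts. Scaled by exact 95% Poisson limits of those counts, which cover counting error only, these levels ran from 1.58 to 3.11, from 5.07 to 7.21 and from 0.796 to 1.48 TPM, so the libraries did not overlap within counting error. Il23a (ENSMUSG00000025383.2; chromosome 10, 128296139 to 128298752) had 0.23, 11.1 and 0.46 TPM, from 4, 276 and 20 expected counts. The corresponding limits were 0.0627 to 0.589, 9.78 to 12.4 and 0.281 to 0.710 TPM: replicates 1 and 3 overlapped, and replicate 2 stood far above both. Il27 made up 99.5%, 96.9% and 99.5% of the summed TPM of the helical subunit genes. The summed levels of the helical genes were 480, 548 and 315 TPM, against 474, 535 and 614 TPM for the receptor-like genes.

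**Figure D1:**
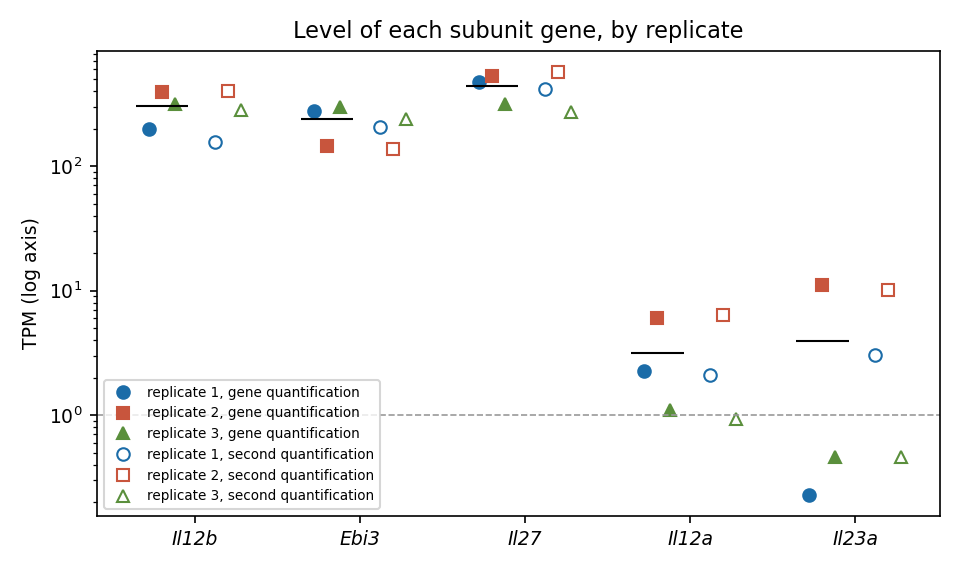
TPM (log axis) of the 5 subunit genes in replicates 1 (circles), 2 (squares) and 3 (triangles); filled symbols are the gene quantification with its mean as a black line, open symbols the second quantification, and the dashed line marks 1 TPM. Il12b, Ebi3 and Il27 lie between 136 and 571 TPM in all libraries and both quantifications, and Il23a lies at 11.1 and 10.1 TPM in replicate 2 and at no more than 3.05 TPM in the other libraries.

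The question a within-library comparison can answer is how far the partner genes of a heterodimer lay from each other. All 10 pairs of members were compared as log2 ratios of TPM plus 0.1 in each library, and tested by flipping the signs of the 3 values in every way (an exact permutation test, two-sided), which cannot go below p = 0.25. In 7 of 10 pairs all libraries fell on the same side, each with an exact permutation p of 0.25 (0.357 after Benjamini-Hochberg adjustment over the 10 pairs). All of these but Ebi3 to Il27 set an abundant gene (Il27, Il12b or Ebi3) against a low one (Il12a or Il23a). They share genes and are not separate results. How often other gene pairs keep the same order in all libraries was not examined. The interleukin 12 partners were far apart: Il12b exceeded Il12a 83.8-fold, 63.4-fold and 265-fold in replicates 1, 2 and 3. Those of interleukin 23 lay further apart in replicates 1 and 3, with Il12b 597-fold and 567-fold above Il23a, than in replicate 2, with 35.1-fold. The mean log2 ratio of Il12b to Il23a was 7.83 ± 2.34 (SD, n = 3), and 9.18 ± 0.05 without replicate 2.

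The interleukin 27 partners were of similar size. Ebi3 lay below Il27 in every library, with log2 ratios of -0.78, -1.88 and -0.08 in replicates 1, 2 and 3 and a mean of -0.91 ± 0.91. The mean was only just larger than its SD, and without replicate 2 it was -0.43 ± 0.50. Without length scaling, in counts scaled by library size (CPM), only 2 of 3 libraries had Ebi3 below Il27. For interleukin 35, Il12a lay below Ebi3 with log2 ratios of -6.88, -4.55 and -7.95. Il12a and Il23a, the alternative partners of p40, did not differ beyond their spread, with 2.83, -0.85 and 1.10; Il23a was the higher in replicate 2 and Il12a in the other libraries. Nor did Il12b differ from Ebi3 (0.35 ± 0.99) or from Il27 (-0.57 ± 0.66) beyond the spread between libraries. In CPM, however, Il12b lay above Ebi3 in all 3 libraries (1.20 ± 1.00). Ordered by mean level, the genes were Il27, Il12b, Ebi3, Il23a and Il12a, and the only neighbours in that order separated by more than their SD were Ebi3 and Il23a (7.49 ± 3.30).

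**Figure D2:**
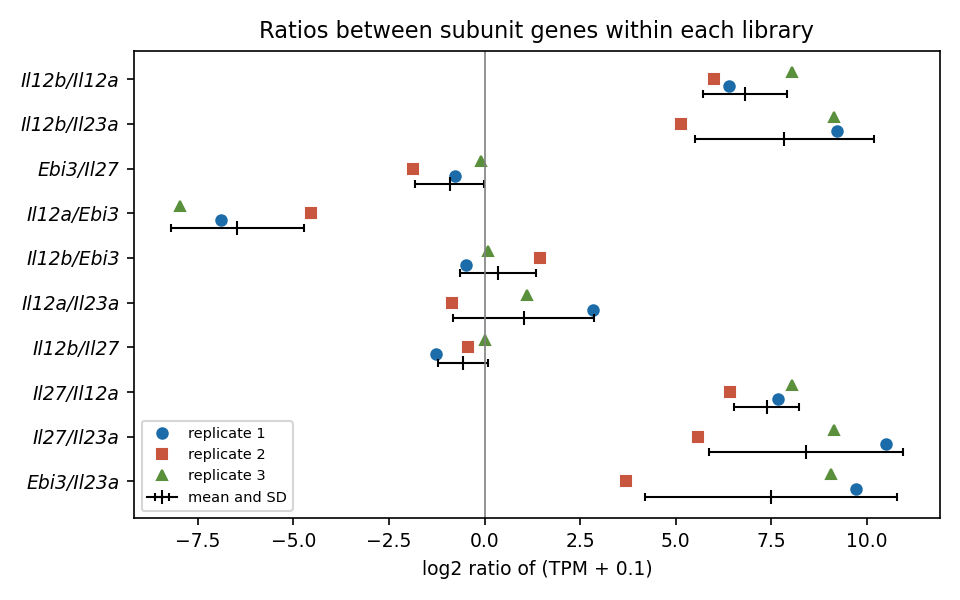
log2 ratios of TPM plus 0.1 for the 10 pairs of subunit genes, in replicates 1 (circles), 2 (squares) and 3 (triangles), with mean and SD (n = 3) as black bars. The 5 abundant-to-low pairs lie beyond 3.69 on the positive side, Il12a/Ebi3 beyond -4.55 on the negative side, and Il12b/Ebi3, Il12a/Il23a and Il12b/Il27 cross 0.

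At the transcript level a single coding form carried each gene in the gene-level quantification. Il12b-201 made up 99.9% of Il12b TPM in each library (99.89%, 99.93% and 99.90%); Il12b-202, with the same 1005 coding bases and a longer noncoding first exon, had the rest. Ebi3 and Il27 each have 1 annotated transcript. Il12a has 6. Il12a-201, which starts at 68690644, had 0 counts in all 3 libraries in both quantifications. A count of 0 allows up to 3 counts by counting error alone. How the quantifications shared reads between the transcripts was not tested. Il12a-202 starts 780 bases downstream, at 68691424, and had 30.9, 121 and 43.0 expected counts, or 84.4%, 87.8% and 100% of the gene's TPM. In the second quantification, made by the authors from the reads and an index, it had 47.3, 144 and 49.0 estimated counts. The reading frame annotated on Il12a-202 has 645 coding bases, 63 fewer than the 708 of Il12a-201, that is 21 codons fewer at its start. The coding Il12a reads were thus assigned by the quantifications to the start that follows the window with 15 CG dinucleotides shown above, and none to the start that follows the window with TTGCAA. The 4 remaining Il12a transcripts are retained-intron forms, of which Il12a-205 and Il12a-204 had up to 8.58 and 4.26 counts from alignments and up to 9.79 and 7.42 in the second quantification.

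Il23a was the member whose level depended on the quantification. The coding transcript Il23a-201 had 4, 274 and 18.8 expected counts in the transcript quantification from alignments and 3.06, 284 and 18.6 in the second, so both gave the same order of libraries. The retained-intron form Il23a-202 is annotated to 128298752, beyond the start of the coding transcript at 128298084 on the minus strand. It had 0, 2.31 and 1.16 counts in the quantification from alignments and 122, 12.2 and 10.5 in the second. In replicate 1 the second quantification thus gave Il23a 3.05 TPM, of which 96.8% was Il23a-202, against 0.23 TPM in the gene quantification. The log2 ratio of Il12a to Il23a changed side with it, from 1.03 ± 1.84 to -0.11 ± 0.85, and was 1.19 ± 2.00 in its coding transcripts alone. In those transcripts the ratio of Il12b to Il23a was 8.11 ± 2.40.

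**Figure D3:**
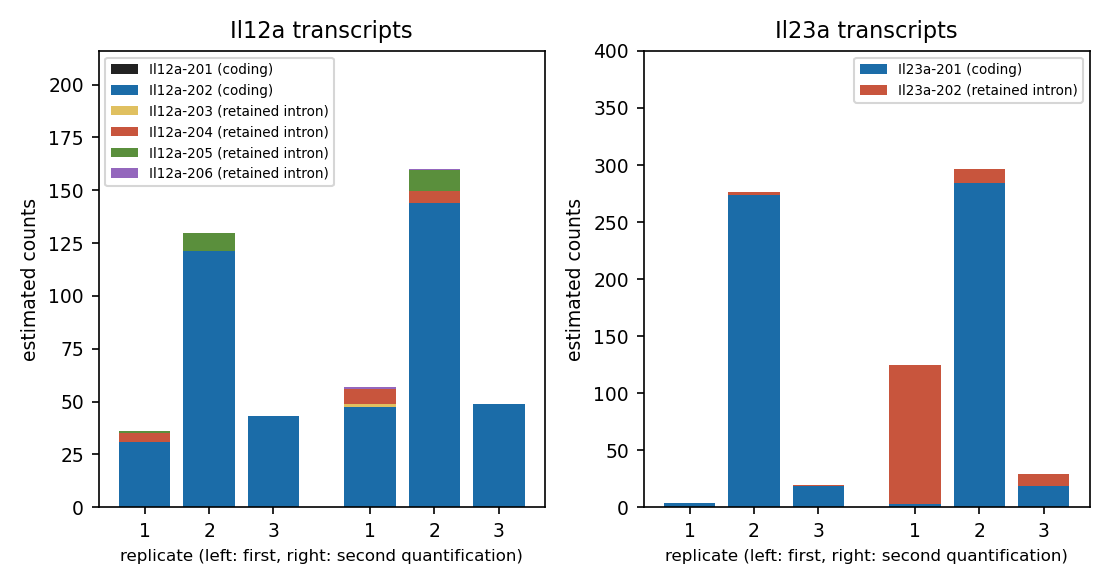
Estimated counts per library of the annotated transcripts of Il12a (left panel) and Il23a (right panel), stacked by transcript; in each panel the left 3 bars are the quantification from alignments and the right 3 the second quantification, for replicates 1, 2 and 3. Il12a-202 carries most Il12a counts in all 6 bars, and Il23a-202 carries 122 counts in replicate 1 of the second quantification.

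Reads from an overlapping gene could enter a pair of members, since no source used here says whether strand was kept. Exons of Ebi3 overlap 270 exonic bases of the antisense gene Gm16712, which had 24.1, 11.3 and 8.45 TPM. The last exon of Il27 overlaps the end of Apobr, an apolipoprotein B receptor gene, by 103 bases, and Apobr had 89.5, 104 and 75.7 TPM. No annotated gene overlaps Il12a, Il12b or Il23a.

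Between libraries the members varied in different directions, and the log2 range of each of the 4 tested members (0.90 for Il12b, 1.14 for Ebi3, 2.25 for Il12a and 0.66 for Il27) was above the median of all tested genes, 0.47. Here and below, ranges and the highest and lowest library of a gene were taken on log2 CPM. The TPM values printed beside them can differ in order and range. Expected counts were compared with equal rates over the 3 libraries by a chi-square test on 11611 genes that passed a filter on low counts. The filter removed Il23a; the other 4 members passed it and all 4 departed from equal rates, as did 77.5% of all genes tested. The highest chi-square p among the 4, adjusted over all tested genes, was 1.99e-22, for Il12a. This test sets the libraries against counting error only. The gene-wise biological coefficient of variation (edgeR) was 23.0% for Il12b, 26.3% for Ebi3, 45.7% for Il12a and 20.9% for Il27, against a median of 21.3% over all tested genes. This estimate is drawn toward that of other genes. The plain coefficient of variation of TPM, which includes counting error, was 32.5%, 34.7%, 82.9% and 25.7% in the same order. A range of more than 2-fold between the highest and lowest library was seen in 2 of the 4 tested members, Ebi3 and Il12a, and in 12.7% of all tested genes. Il27 had the narrowest range, with replicates 1 and 2 only 0.03 apart; without replicate 3 its departure was lost (chi-square, adjusted p = 0.272 over all genes).

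Replicate 2 was the highest library for 3 of the 4 tested members and for 37.8% of all tested genes, and the lowest for Ebi3, as for 36.6% of genes. Replicate 1 was the highest library for no tested member (31.6% of all genes) and the lowest for Il12b alone (32.8%), whereas replicate 3 was the highest for Ebi3 (30.6%) and the lowest for Il12a and Il27 (30.5%). On the scale of log2 CPM, replicate 2 lay above the mean of the other libraries by 0.55 for Il12b, 1.75 for Il12a and 0.34 for Il27. Ebi3 lay below it by the log2 difference of -1.10, with -1.06 against replicate 1 alone and -1.14 against replicate 3 alone. For Il12b the position of replicate 2 rested on replicate 1: the difference was 0.90 against replicate 1 and 0.20 against replicate 3. Il23a, outside the tested genes, lay 4.91 above the mean of the others, 32.0-fold in TPM, and 2.42 above it in the second quantification.

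Tested markers of other cell types were highest in replicate 2, except the T cell marker Lck, which was lowest there. Of 10 neutrophil markers 5 were tested and all 5 were highest in replicate 2, against 37.8% of all tested genes. The summed level of the 10 was 93.5, 729 and 55.6 TPM in replicates 1, 2 and 3. S100a9 led with 47.1, 432 and 26.0 TPM, while Ly6g had 0 counts in all libraries. All 5 tested dendritic cell markers of 8 were also highest in replicate 2, and the sums of the 8 were 3.74, 7.12 and 3.35 TPM. Of the 5 tested, 4 departed from equal rates (77.5% of all tested genes). Xcr1 did not (chi-square, adjusted p = 0.57 over all genes), at 0.30, 0.35 and 0.25 TPM. The highest of the 8, Ccr7, reached 2.59 TPM, the lineage factor gene Zbtb46 0.83 TPM, and none of the 8 was at 0 counts. Natural killer cell markers summed to 0, 0.44 and 0.04 TPM, with Prf1 at 0 counts, and none was tested. Of 5 B cell markers, Cd79b alone was tested, highest in replicate 2, and the sum was 1.43, 2.71 and 1.5 TPM. Of 6 T cell markers Lck alone was tested, at 34.7, 24.6 and 46.5 TPM, and Cd3d and Cd3e had 1 count each over all libraries. On log2 CPM, 5 of the 8 macrophage markers were lowest in replicate 2, against 36.6% of all tested genes, and 2, Mertk and Itgam, were highest there. In TPM the lowest library of Cd68 was replicate 1. The sum of the 8 was 29264, 19349 and 23771 TPM, most of it from Lyz2 at 23351, 13755 and 17085 TPM. The part of these differences in the values of the subunit genes was not tested. In bulk RNA fewer cells of a type and less RNA per cell cannot be told apart.

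**Figure D4:**
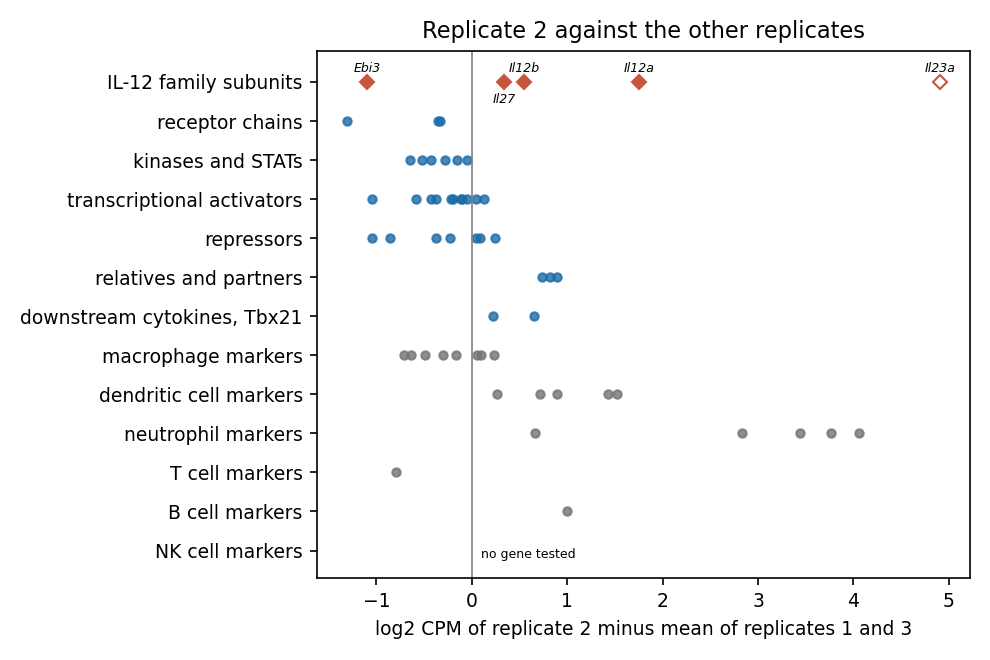
Difference in log2 CPM (counts scaled by library size) between replicate 2 and the mean of replicates 1 and 3, for the 5 subunit genes (diamonds, open for Il23a, which did not pass the filter on low counts) and for tested genes of the pathway lists (blue) and marker lists (grey). Ebi3 lies at -1.10, the other tested subunit genes between 0.34 and 1.75, and 5 neutrophil markers between 0.66 and 4.06.

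Of the receptor chains, Il6st was the highest. Il6st, which encodes gp130, the chain that interleukin 27 shares with interleukin 6, had 24.1, 23.6 and 30.8 TPM. Il12rb2, the signalling chain of the interleukin 12 receptor, had 12.5, 10.5 and 13.2 TPM, and Il12rb1, the chain shared by the receptors for interleukin 12 and interleukin 23, had 6.12, 1.84 and 2.92 TPM. The private chains Il23r and Il27ra stayed below 1 TPM in every library, with 0.50, 0.64 and 0.07 TPM and 0.16, 0.20 and 0.21 TPM. Thus 3 of 5 receptor genes were detected. All 3 departed from equal rates (77.5% of all tested genes) and had their lowest value in replicate 2 (36.6%). There Il12rb1 differed from the mean of the other libraries by -1.31 on log2 CPM. The Janus kinase and STAT genes through which these receptors signal were all detected (6 of 6). Jak2 had 205 ± 24.3 TPM (SD, n = 3), and Stat4, the factor activated by interleukin 12, was lowest at 3.22 ± 0.884 TPM. In 5 of the 6, replicate 2 was the lowest library, as in 36.6% of all tested genes.

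Regulators with known roles at these genes were present in all libraries. Of 11 activators, 11 were detected, from Cebpb at 23.4 ± 7.84 TPM (SD, n = 3) to Irf1, a factor of Il12a and Il27 transcription, at 1182 ± 119 TPM. Irf8, which acts on Il12b, had 592, 477 and 583 TPM, and Rel, the NF-kB subunit required for Il12b in macrophages, had 54.6, 55.4 and 47.5 TPM. Rel and Irf8 varied less than the 4 tested subunit genes: the range on log2 CPM was 0.17 for Rel and 0.38 for Irf8, against 0.90 for Il12b and 2.25 for Il12a. Over the 11 activators the range ran from 0.16 for Nfkb1 to 1.10 for Cebpb, which is above that of Il12b. Spi1, at 0.76, was above Il27, at 0.66. The part of these regulators in the levels of the subunit genes was not tested. Cebpb, a factor of the Il12b promoter, was lowest in replicate 2, with 29.0, 14.5 and 26.9 TPM, where Il12b was highest. On log2 CPM, replicate 2 was the highest library for none of the 11 activators (37.8% of all tested genes) and the lowest for 7 (36.6%). In TPM, Rel was highest in replicate 2, and Irf3 was lowest in replicate 3, with 29.4, 21.5 and 20.3 TPM. All 7 repressors and brakes were detected, and 6 departed from equal rates, a share near the 77.5% of all tested genes. The exception was Il10, which encodes a cytokine that limits Il12b expression. It had 39.8, 44.3 and 40.2 TPM, and its range on log2 CPM, a different scale, was 0.05. Nfil3, a repressor of Il12b, had 28.6, 30.6 and 39.7 TPM, and Socs1, an inhibitor of cytokine receptor signalling, 94.1, 43.3 and 58.1 TPM.

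Genes with the most similar profile over the 3 libraries were named by the distance between centred log2(TPM + 0.1) values among detected protein-coding genes, of which 9378 could be compared with a detected member. With 3 points many genes lie close to any profile, and the distances are a description. Il27 was nearest to Esco1, Tnf and Ulbp1; Tnf, the tumour necrosis factor gene, had 1637, 1843 and 1086 TPM, a distance of 0.013 (log2). Ebi3 was nearest to Tlr9, the endosomal DNA receptor gene, which had 18.1, 9.28 and 19.4 TPM at a distance of 0.0092, followed by Tmem101 and Plxdc1. For Il12b the nearest were Pwp2, Qser1 and Adssl1, the first with 1.98, 3.97 and 3.26 TPM. Il12a was nearest to AL731706.2, to the chemokine gene Cxcl2 with 88.5, 206 and 38.6 TPM, and to Slc15a4, at distances of 0.11, 0.17 and 0.21. No gene came as close to Il23a: its nearest were the neutrophil granule gene Ngp, with 3.94, 60.6 and 2.85 TPM at a distance of 0.97, the chemokine gene Cxcl3 at 1.31 and S100a9 at 1.44.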

How the data were processed

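Polyadenylated RNA was measured in 3 libraries of 1 group. The authors deposited, per the file headers, expected counts, TPM and FPKM per gene, the same with the percent of its gene for each transcript, and a second transcript table of estimated counts and TPM. Per the text files deposited beside them, the assembly is mm10 and the annotation GENCODE M21; no source used here gives the aligner, quantifiers or strand setting. The second table was summed per gene. Expected counts were rounded, filtered and TMM-scaled with edgeR 4.0.16 (R 4.3.3), and DESeq2 1.42.0 gave alternative size factors; entries that are not mouse genes were left out. The chi-square test used Benjamini-Hochberg adjustment and a threshold of 0.05, and log2 CPM a prior of 0.5 counts. The scripts were tested on simulated data. FPKM served for an alternative count of detected genes. Members, lists, pairs and named genes (list members, and the 3 nearest genes per member) were chosen with earlier results of these data known. Values of some list genes are not reported here.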

Additional observations from a re-analysis of the deposited data

Results flagged for a closer look

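Retained-intron transcripts of members reached the limit of 3 counts in the second quantification where the quantification from alignments had fewer. Il23a-202 had 122, 12.2 and 10.5 estimated counts in replicates 1, 2 and 3, against 0, 2.31 and 1.16. Il12a-204 had 5.75 estimated counts in replicate 2, against 0. The cause of the difference was not tested.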

How the results depend on the processing

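No alternative turned the mean direction of the 7 pairs whose libraries fell on the same side. Leaving out a replicate could not have done so. Pairs with all libraries on the same side were recounted in settings chosen after seeing the data. They numbered 7 in CPM, with 1 TPM as pseudocount, and in the second quantification or its coding transcripts. With any single replicate left out they numbered 8, but fewer libraries cannot lower this count, so that recount tests nothing. In CPM the 7 were not the same pairs: Ebi3 to Il27 left (2 of 3 libraries) and Il12b to Ebi3 entered (1.20 ± 1.00). Il12b to Il27, which did not differ beyond its spread, moved from -0.57 to 0.52 in CPM. The mean log2 ratio of Il12b to Il12a ran from 6.19 to 7.22 when 1 replicate was left out, that of Il12b to Il23a from 7.14 to 9.18, that of Ebi3 to Il27 from -1.33 to -0.43 and that of Il12a to Ebi3 from -7.42 to -5.72. Genes departing from equal rates numbered 8999 (77.5% of those tested), 10210 without the filter (49.6%) and 9010 with DESeq2 size factors (77.6%). With replicate 1, 2 or 3 left out they numbered 7851 (64.3%), 6090 (50.6%) and 6895 (58.8%). Of the members tested in those settings, 5 of 5, 4 of 4 and 3 of 4 departed. Without the filter Il23a was tested and departed too. Leaving out replicate 2 took the log2 range of Il23a from 5.41 to 1.00, of Il12a from 2.25 to 1.00 and of Ebi3 from 1.14 to 0.08, leaving out replicate 1 took that of Il12b from 0.90 to 0.20, and leaving out replicate 3 took that of Il27 from 0.66 to 0.03. At 2 TPM, in FPKM and in the second quantification 3 members were detected, Il12a being lost. No paired analysis was possible because there is 1 group. Values of Il23a in replicates 1 and 3 rest on 4 and 20 counts, which limits every ratio that uses them.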

Other observations

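Relatives and partners of the family outside its 5 genes were mostly low. Of 7, 3 were detected: Cd5l, a secreted scavenger-receptor protein of macrophages that can bind p40, had 299, 793 and 535 TPM in replicates 1, 2 and 3, Il6 had 135, 188 and 70.6 TPM, and Clcf1, a helical cytokine gene of the same superfamily, had 4.71, 8.06 and 3.86 TPM. All 3 were highest in replicate 2, as were 37.8% of all tested genes, and 18.1% of all genes were detected. The other helical cytokine genes Lif, Cntf and Il11 averaged 0.267, 0.467 and 0.0133 TPM.

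Cytokines downstream of or acting with interleukin 12 and interleukin 23 divided by their usual source. Il15 and Il18, which macrophages make, had 652, 708 and 480 TPM and 91.8, 121 and 51.1 TPM. The lymphocyte products Ifng and Il22 had 12 and 5 counts over all libraries, Il17a had 0, and Tbx21, a T cell and natural killer cell transcription factor gene, had 2. Ifng was seen at 0, 1.83 and 0.03 TPM.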
